A study of Homo sapiens with 24 samples.

Results

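MSH6, MSH3 and PMS2 encode mismatch repair proteins, and their transcripts were followed in LNCaP cells after knockdown of TAPIR-1 or TAPIR-2, long noncoding RNAs of prostate cancer. The genes were chosen by name, though with earlier results of these data known. Their probes were found through the RefSeq accession given for each spot. They are 3 of 36639 genes tested at 24 h and of 37704 tested at 48 h, and 8 probes at each time point belong to them, of 50599 and 58201 in all. LNCaP is a human prostate cancer line that is known to be deficient in mismatch repair. The cells were electroporated with the scrambled siRNA (si-SCRL), with si-A1 against TAPIR-1 or with si-A2 against TAPIR-2. Total RNA from each group was hybridised to 4 one-colour arrays at 24 h and to 4 at 48 h, without any untreated cells among the 24 arrays. The arrays of 24 h and 48 h are of different versions, so time point and array version cannot be told apart, and levels are compared only within a time point. Replicate 2 of si-A2 at 48 h was dim, with a median intensity of 13.9 against 20.4 to 32.2 on the other arrays of 48 h, and was left out. The methods of the study call the replicates biological and say no more of how they were grown, so p-values cover only the spread between these arrays.

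Mismatch repair corrects the mispaired bases and small loops that DNA polymerases leave behind. A MutS-type complex finds the error, a MutL-type complex cuts the new strand, an exonuclease removes the stretch that holds the error, and polymerase delta and a ligase restore it. MSH6 belongs to the MutS complex for single mispairs and short loops, and MSH3 to the one for longer loops. PMS2 carries the endonuclease activity of the main MutL complex. Tumours that lose the pathway gain and lose repeat units in short tandem repeats, which is called microsatellite instability.

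The positions of the 3 genes are given on GRCh38.p14. MSH6 lies on the plus strand at chr2:47783145-47810101, and the 3′ end of the gene overlaps FBXO11 at chr2:47806920-47906498. MSH3 lies on the plus strand at chr5:80654652-80876815. PMS2 lies on the minus strand at chr7:5970925-6009106, and 165 bases separate it from AIMP2 at chr7:6009272-6023834, which runs the other way. The sequences below, from RefSeq, are shown because they hold the start-site motifs by which the 3 genes can be compared with S phase genes. Capitals mark TTTCCCGC and TTTGGCGC, letters of the type bound by E2F factors, and CCAAT, the letters bound by NF-Y, which reads ATTGG on the other strand.
MSH6 around its start, chr2:47783137-47783166, plus strand: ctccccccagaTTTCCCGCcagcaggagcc
MSH6 before its start, chr2:47783065-47783144, plus strand: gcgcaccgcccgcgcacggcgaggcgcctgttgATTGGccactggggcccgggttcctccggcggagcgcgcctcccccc
MSH3 before its start, chr5:80654534-80654563, plus strand: gcgcggtcaagTTTGGCGCgaaattgtggc
PMS2 and AIMP2, the stretch between the genes, chr7:6009107-6009271, minus strand: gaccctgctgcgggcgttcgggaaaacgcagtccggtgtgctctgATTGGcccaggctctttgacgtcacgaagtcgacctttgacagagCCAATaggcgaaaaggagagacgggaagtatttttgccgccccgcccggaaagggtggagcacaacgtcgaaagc
In windows of 250 bases before to 50 after the start, on both strands, TTTCCCGC was found in 1.66% of 27305 genes, TTTGGCGC in 0.659% and CCAAT in 35.7%. MSH6 held TTTCCCGC and CCAAT, MSH3 held TTTGGCGC, and PMS2 held CCAAT. One or the other E2F-type motif was found in 2.31% of all genes and in 13 of 32 S phase genes with a window. It was found in 3 of 20 other mismatch repair genes, which were PCNA, RFC3 and LIG1. CCAAT was found in 22 of the 32 S phase genes and in 10 of the 20 other mismatch repair genes. A match describes the letters and does not show that a factor binds there.

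Of the targeted transcripts, TAPIR-2 could be followed and TAPIR-1 could not. The TAPIR-2 probe A_19_P00318461, which passed the background threshold at both times, had normalized log2 intensities at 24 h of 5.08, 4.98, 5.28 and 4.81 with si-SCRL and of 4.70, 3.12, 4.61 and 3.82 with si-A2 (log2 fold change -0.98, adjusted p = 0.23). At 48 h the same probe read 4.70, 5.41, 4.02 and 4.44 with si-SCRL and 5.62, 3.83 and 4.60 with si-A2 (0.23, adjusted p = 0.70). A second TAPIR-2 probe, A_22_P00019831, passed the threshold at 48 h, where it read 1.72 to 3.30 with si-SCRL and 1.03 to 2.75 with si-A2 and was well above background on 0 arrays. At 24 h every si-A2 array of A_19_P00318461 was below every si-SCRL array, though without a call. At 48 h the groups overlapped on both probes, so a loss of the target was not shown then for the arrays labelled si-A2. The paper reports knockdown of TAPIR-2 by qPCR at a later time. For TAPIR-1 no accession on the arrays gave a match. All 8 markers of LNCaP, among them KLK3 and TMPRSS2, were well above background on every array used, and KLK2 fell with si-A1 at 48 h (-1.07). Of 6 fibroblast markers, 0 at 24 h and 2 at 48 h (DCN and PDGFRB) were well above background on every array, and COL1A2 and LUM were so on none. Of 4 basal epithelial markers, 0 at 24 h and 1 at 48 h were well above background on every array, and KRT5 was so on none. The 3 white blood cell markers PTPRC, CD3E and CD14 were well above background on every array, with group means of 5.98 to 8.92 at 24 h and 6.6 to 9.53 at 48 h. Their part in the results was not tested. In bulk RNA, fewer cells of a type and less RNA per cell cannot be told apart.

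At baseline, with si-SCRL, every probe of the 3 genes was well above background on every array. The normalized log2 intensity at 24 h was 6.94 ± 0.30 (SD, n = 4) for MSH6, 6.0 ± 0.29 for MSH3 and 10.74 ± 0.20 for the PMS2 probe with the highest signal. At 48 h the probes that stood for the genes read 6.67 ± 0.13 for MSH6, 11.33 ± 0.20 for MSH3 and 9.70 ± 0.17 for PMS2. The MSH3 probe of 24 h, A_23_P122001, read 5.3 ± 0.11 with si-SCRL at 48 h, far below the probe that stood for the gene there. The level of MSH3 thus depends on the probe. These levels come from different probes and give no order of the genes.

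MSH6 fell with si-A1 at 48 h and was the only one of the 3 genes to be called in any comparison with si-SCRL. Calls rest on limma, with p adjusted over all genes tested: below 0.01, and a log2 fold change of 0.5 or more in size. At 48 h the MSH6 probe, A_23_P102202, read 6.55, 6.71, 6.59 and 6.84 with si-SCRL and 5.50, 5.84, 5.59 and 5.82 with si-A1. Every si-A1 array was below every si-SCRL array. The log2 fold change was -0.98 (SE 0.14, 95% interval -1.30 to -0.67), a 1.98-fold lower level, with an adjusted p of 0.00222. This is 1 of the 3 genes, against 3.66% of all genes called lower in that comparison. With si-A2 the 3 arrays read 6.0, 5.80 and 6.32, also all below si-SCRL. Their log2 fold change was -0.64 (SE 0.15, -0.98 to -0.30) with an adjusted p of 0.0638, so MSH6 was not called, and none of the 3 genes was called lower, against 0.379% of all genes. With the dim array included, the value of MSH6 with si-A2 was -1.34 and its adjusted p 0.46. How many of all genes have groups without overlap was not counted, so the separation of arrays is not read as particular to MSH6. At an unadjusted limma p below 0.05, 4474 of 37704 genes were lower with si-A1 and 3389 with si-A2 at 48 h.

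At 24 h MSH6 was lowest with si-A2, and the 3 groups did not overlap. The probe read 6.80, 6.70, 7.38 and 6.88 with si-SCRL, 6.58, 6.30, 6.45 and 6.23 with si-A1, and 5.84, 6.02, 6.10 and 5.92 with si-A2. In words, both siRNAs gave lower arrays than si-SCRL, and replicate 3 of si-SCRL was the highest of the 12. The log2 fold change with si-A2 was -0.97 (SE 0.16, -1.33 to -0.61), a 1.96-fold lower level, and its adjusted p of 0.0107 lay just past the threshold. The log2 fold change with si-A1 was -0.55 (SE 0.16, -0.91 to -0.20) with an adjusted p of 0.149. None of the 3 genes was called lower at 24 h, against 0.958% of all genes with si-A1 and 0.827% with si-A2. Without replicate 3 of si-SCRL the MSH6 values were -0.41 with si-A1 and -0.83 with si-A2. The share of all genes whose groups do not overlap was not counted at 24 h either. At an unadjusted limma p below 0.05, 2458 of 36639 genes were lower with si-A1 and 2229 with si-A2.

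**Figure D1:**
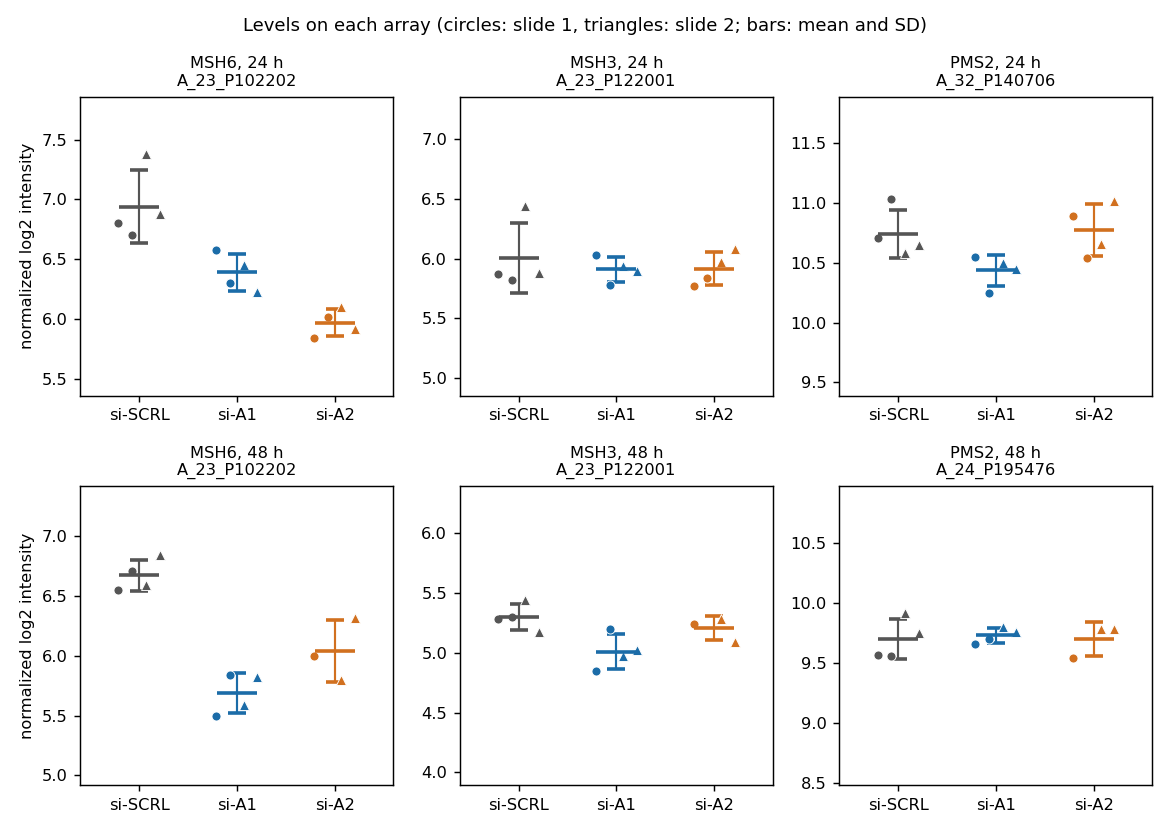
Normalized log2 intensity on each array for MSH6, MSH3 and PMS2, at 24 h (top) and 48 h (bottom), with circles for slide 1, triangles for slide 2 and bars for mean and SD (n = 4 arrays a group, 3 for si-A2 at 48 h). MSH6 lies below si-SCRL on every array of both siRNAs, whereas the MSH3 and PMS2 probes of 48 h overlap with si-SCRL in both siRNA groups. How many of all genes have groups without overlap was not counted.

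The order of the siRNAs was not the same at both times, but the differences between them were not called. In the direct comparison MSH6 was at -0.42 (-0.78 to -0.06, adjusted p = 0.351) in si-A2 against si-A1 at 24 h and at 0.34 (0.00 to 0.68, adjusted p = 0.275) at 48 h. At 48 h 0 of the 3 genes were called higher in si-A2 in that comparison, against 0.918% of all genes. Each array set was spread over 2 slides, and MSH6 was below si-SCRL on both. Within slide 1 and slide 2 its change was -0.96 and -1.01 with si-A1 at 48 h, -0.63 and -0.65 with si-A2 at 48 h, and -0.82 and -1.12 with si-A2 at 24 h. With si-A1 at 24 h it was -0.31 and -0.79. FBXO11, a ubiquitin ligase subunit whose 3′ end overlaps that of MSH6, had log2 fold changes at 48 h of -0.52 with si-A1 (adjusted p = 0.0107) and -0.32 with si-A2. A second FBXO11 probe, A_23_P356101, fell by 0.60 with si-A1 at 48 h (adjusted p = 0.00846 over all probes).

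MSH3 was not called in any comparison. At 24 h its probe A_23_P122001 read 5.87, 5.82, 6.44 and 5.88 with si-SCRL, 6.03, 5.78, 5.94 and 5.90 with si-A1, and 5.77, 5.84, 5.97 and 6.08 with si-A2. The groups overlapped, and replicate 3 of si-SCRL again stood highest. The log2 fold changes were -0.09 with si-A1 (-0.42 to 0.24, adjusted p = 0.827) and -0.09 with si-A2 (-0.42 to 0.24, adjusted p = 0.865), and both were 0.04 without that array. The arrays of 48 h hold a further MSH3 probe, A_22_P00010205, which had the highest signal of the MSH3 probes and so stood for the gene. It read 11.46, 11.03, 11.45 and 11.38 with si-SCRL, 11.30, 11.22, 11.16 and 11.10 with si-A1, and 11.27, 11.26 and 10.74 with si-A2. Its log2 fold changes were -0.13 (-0.47 to 0.21, adjusted p = 0.633) and -0.23 (-0.60 to 0.14, adjusted p = 0.518). The probe A_23_P122001 gave -0.29 (-0.53 to -0.05) with si-A1 and -0.09 (-0.35 to 0.17) with si-A2 at 48 h, with adjusted p of 0.104 and 0.741 over all probes. The intervals of both probes leave out a change as large as that of MSH6 with si-A1. Their signals with si-SCRL at 48 h lay far apart, with means of 11.33 for A_22_P00010205 and 5.3 for A_23_P122001. Why they differ was not tested, so the source of the MSH3 signal is uncertain.

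PMS2 was measured by 6 probes at 24 h and by the same ones without A_21_P0013247 at 48 h. All were well above background on every array used, and none was called. At 24 h the brightest, A_32_P140706, read 10.71, 11.03, 10.58 and 10.65 with si-SCRL, 10.55, 10.25, 10.50 and 10.45 with si-A1, and 10.89, 10.54, 10.66 and 11.02 with si-A2. The si-A1 arrays lay just below si-SCRL, and the si-A2 arrays overlapped with it. The log2 fold changes were -0.30 (-0.65 to 0.04, adjusted p = 0.463) and 0.03 (-0.32 to 0.38, adjusted p = 0.96). At 48 h the brightest was A_24_P195476, with 9.57, 9.56, 9.92 and 9.75 with si-SCRL, 9.66, 9.70, 9.80 and 9.76 with si-A1, and 9.54, 9.78 and 9.78 with si-A2. Its log2 fold changes were 0.03 (-0.15 to 0.21, adjusted p = 0.839) and -0.03 (-0.23 to 0.17, adjusted p = 0.905). The other PMS2 probes ranged from -0.25 to -0.07 with si-A1 and from -0.13 to 0.13 with si-A2 at 24 h. At 48 h they ranged from -0.22 to 0.17 and from -0.11 to 0.08.

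PMS2 has a family of near-identical partial copies, and its probes may also read their transcripts, so the source of the signal is uncertain. Of 10 such copies on the list, 5 were tested at 24 h and 4 at 48 h, and none was called. On the probe that stood for each copy, the log2 fold changes with si-A1 at 48 h lay between -0.15 for PMS2P1 and 0.20 for PMS2P5. A second PMS2P9 probe, A_21_P0013389, was at 0.44 there (0.23 to 0.65, adjusted p = 0.0147 over all probes). AIMP2, a scaffold of the tRNA synthetase complex that starts 165 bases away, was at 0.14 and 0.03 at 24 h and at 0.12 and -0.02 at 48 h with si-A1 and si-A2, also without a call.

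**Figure D2:**
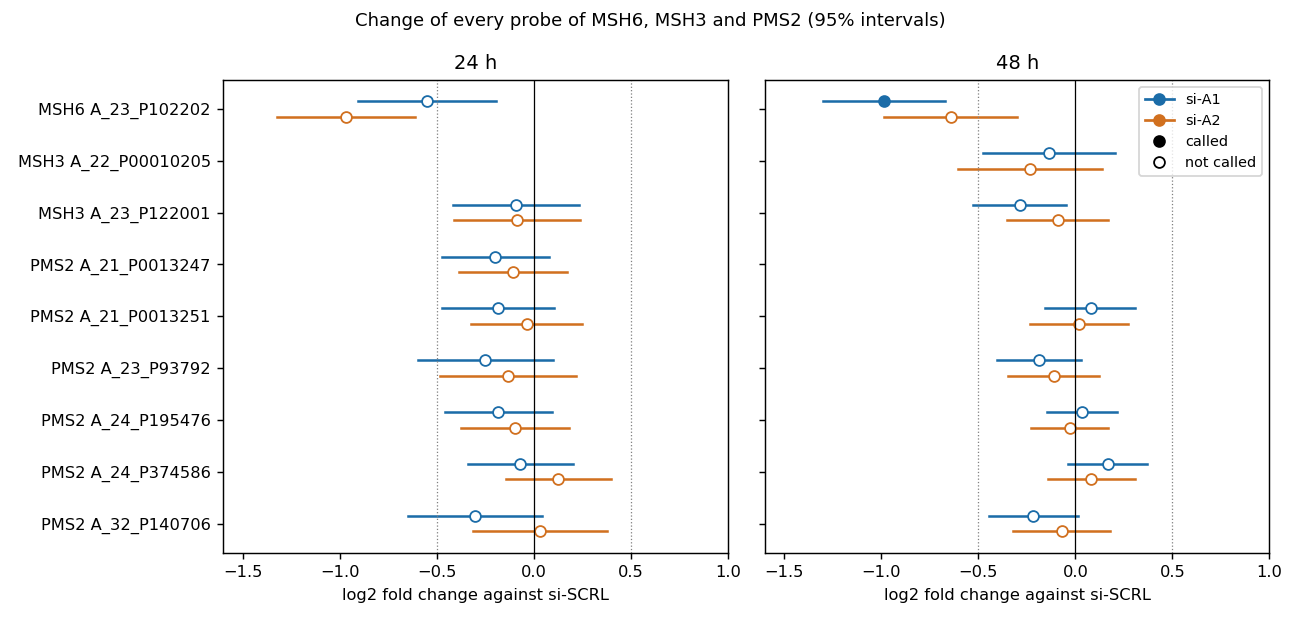
Log2 fold change against si-SCRL of every probe of MSH6, MSH3 and PMS2 at 24 h and 48 h, with 95% intervals from limma, blue for si-A1 and orange for si-A2, filled where called. Among the probes shown only MSH6 with si-A1 at 48 h is called, and each PMS2 probe has an interval that includes 0.

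MSH6 was also set against the other genes by the difference between 2 probes within each array. The pairs were chosen after their values were seen, so the test cannot decide whether MSH6 moved apart. These were 12 comparisons by an exact two-sided permutation test, in which 4 arrays against 4 can reach a p of 0.0286 at the lowest, and none was below 0.05 after Benjamini-Hochberg adjustment. The change of MSH6 minus that of MSH3, both read with the probes common to the array versions, was -0.46 with si-A1 and -0.88 with si-A2 at 24 h, and -0.70 with si-A1 at 48 h. The groups did not overlap in these 3 (exact p = 0.0286 each, 0.0686 adjusted). With si-A2 at 48 h it was -0.54 (exact p = 0.0571, 0.0857 adjusted). MSH6 minus PMS2 was -1.0 with si-A2 at 24 h and -1.02 with si-A1 at 48 h (exact p = 0.0286 each). It was -0.64 with si-A2 at 48 h, where the groups did not overlap (exact p = 0.0571), and -0.25 with si-A1 at 24 h (exact p = 0.4). AIMP2 minus PMS2 lay between -0.01 and 0.45, with exact p of 0.0571 or more.

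The other genes of the pathway were set beside the 3 as a list of 23, all of which were tested. At 48 h with si-A1, 13 of the 23 fell and none rose, with a list median log2 fold change of -1.0 against 0.06 over all genes, where 3.66% were called lower. At 24 h, 6 fell with si-A1 and 7 with si-A2, with list medians of -0.64 and -0.40 against 0.05 over all genes in both, where 0.958% and 0.827% were called lower. At 48 h with si-A2 none of the 23 was called by limma, against 0.379% of all genes called lower. At an unadjusted limma p below 0.05, 14 of the 23 were lower and 1 was higher. Over all 37704 genes 3389 were lower and 3124 higher at that p. The list median was -0.47 against 0.01 over all genes. Between 1 and 3 of the 23 were called there under 5 of the other settings. The comparisons of si-A1 and si-A2 share the si-SCRL arrays.

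EXO1, the exonuclease that removes the error-bearing strand, had the largest log2 fold change of the 23 in the 3 comparisons with calls. At 24 h it read 7.28, 7.47, 7.35 and 7.15 with si-SCRL, 5.13, 4.90, 4.91 and 5.09 with si-A1, and 5.08, 4.68, 4.47 and 4.52 with si-A2. Its level was thus 4.94-fold lower with si-A1 (log2 fold change -2.30, adjusted p = 3.04e-05) and 6.16-fold lower with si-A2 (-2.62, adjusted p = 1.21e-05). At 48 h it read 6.86, 6.79, 6.31 and 6.21 with si-SCRL, 3.91, 4.06, 3.64 and 3.76 with si-A1, and 5.96, 5.44 and 5.69 with si-A2. The si-A2 arrays now stood between the others, at -0.77 against si-SCRL (adjusted p = 0.0112), while si-A1 was at -2.70 (adjusted p = 1.23e-05). Set against each other, si-A2 exceeded si-A1 in EXO1 by 1.92 (SE 0.11, adjusted p = 0.000373). With normexp background correction the sizes were smaller, at -1.21 and -1.31 for si-A1 and si-A2 at 24 h, -1.06 for si-A1 at 48 h and 0.65 between the siRNAs at 48 h, all still called.

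The sliding clamp PCNA and its loader subunits fell with EXO1. The log2 fold change of PCNA was -1.4 with si-A1 and -1.2 with si-A2 at 24 h, and -2.02 with si-A1 at 48 h (adjusted p = 8.29e-05). RFC2, RFC3, RFC4 and RFC5, the small loader subunits, were at -1.61 to -1.16 with si-A1 and -1.46 to -1.13 with si-A2 at 24 h, and at -1.97 to -1.81 with si-A1 at 48 h, all called. The large subunit RFC1 was called only with si-A1 at 48 h, where it fell by 1.03. RPA1, RPA2 and RPA3, which cover the exposed single strand, fell there to log2 fold changes of -1.06, -1.16 and -1.39 and were not called at 24 h. RFC3 with si-A1 at 24 h had an adjusted p of 0.00833, which lay above 0.01 when any of 10 of the 12 arrays was left out.

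The genes of resynthesis and the paralogues of the MutS and MutL families moved less evenly. LIG1, the ligase that seals the strand, fell with si-A1 at 48 h (-1.0, adjusted p = 0.00426). POLD3, a subunit of polymerase delta, fell with si-A2 at 24 h (-1.34) and with si-A1 at 48 h (-0.81). At 24 h POLD3 was well above background on only 2 of the 4 si-A2 arrays. POLD2 was at -0.57 with si-A1 at 48 h (adjusted p = 0.0105), and POLD1 and POLD4 were at -0.31 and 0.07 there. MSH5, a MutS homologue that acts in meiosis, fell by 1.31 with si-A1 at 48 h and was at -0.80 at 24 h (adjusted p = 0.0135). MSH4, its partner, was dim and at -0.33 with si-A1 at 48 h. The MutL paralogues PMS1 and MLH3 were at -0.19 and -0.28 there and were not called in any comparison. Among the genes that act around the pathway, HMGB1 was at -0.93 (adjusted p = 0.0113), FAN1 at -0.11 and SETD2 at 0.01 with si-A1 at 48 h. The probes of MCM9 went both ways there, with 0.55 on A_23_P397347, which stood for the gene (adjusted p = 0.0224), and -0.75 to -0.46 on the other 3, none of them called. At 24 h PMS1, MLH3, POLD1, POLD2, POLD4, HMGB1, FAN1 and SETD2 lay between -0.28 and 0.15 with either siRNA, without a call.

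**Figure D3:**
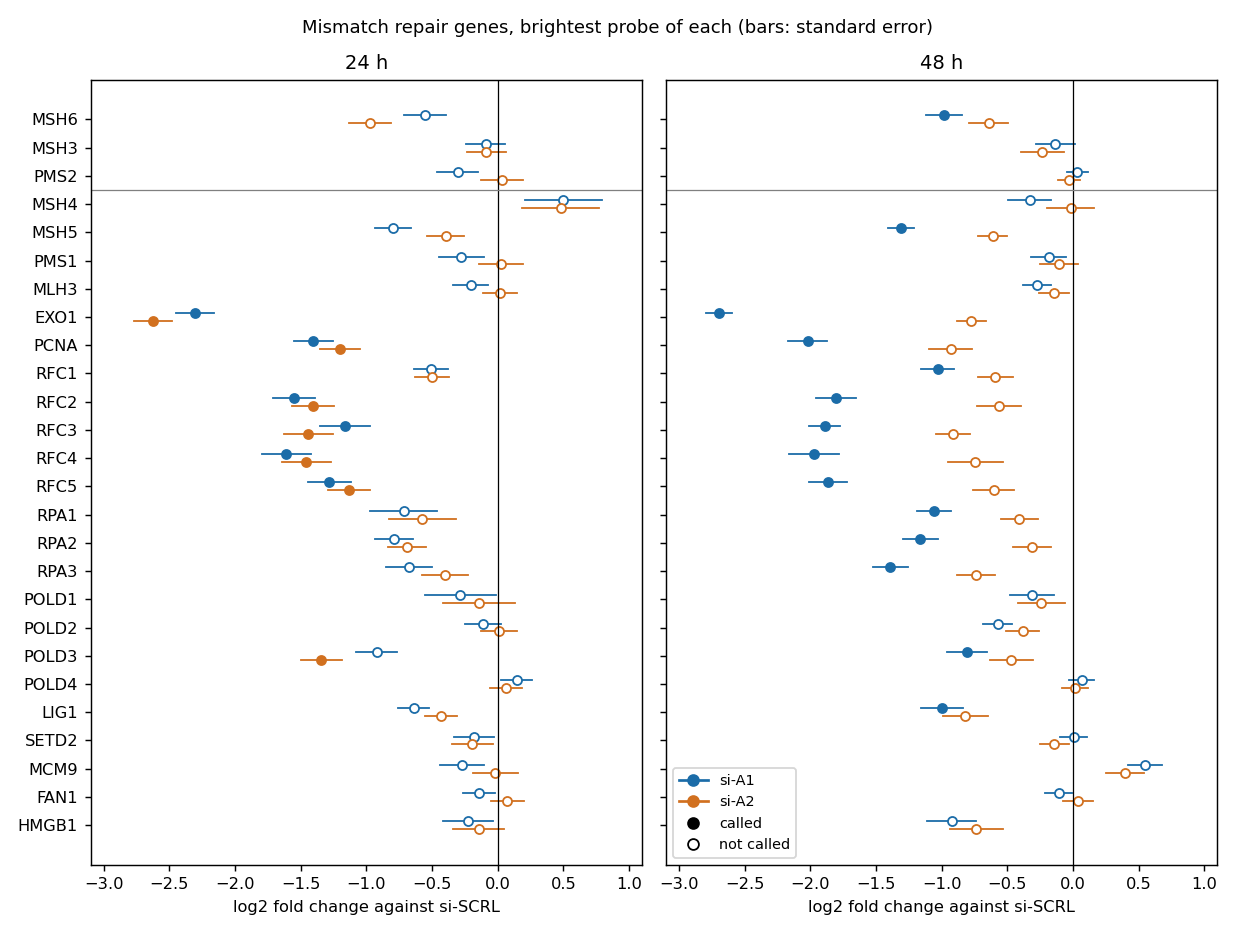
Log2 fold change against si-SCRL of MSH6, MSH3 and PMS2 (above the line) and of the 23 other mismatch repair genes, with standard errors, at 24 h and 48 h, blue for si-A1 and orange for si-A2, filled where called. EXO1, PCNA and the small loader subunits lie to the left of MSH6 for si-A1 at both times, and no point of si-A2 is filled at 48 h.

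In the direct comparison at 48 h, 6 of the 23 stood higher in si-A2, where 0.918% of all genes were called higher. Beside EXO1 they were PCNA (1.09), RFC2 (1.24), RFC3 (0.98), RFC5 (1.26) and MSH5 (0.70). The number was 1 to 5 when a single array was left out, and EXO1 was called each time. With the replicate number as a block it was 5, with RFC4 in and RFC3 and MSH5 out. Under that block 12 of the 23 fell with si-A1 at 48 h against 13 without it, POLD3 being the one lost. MSH6 kept its call with si-A1 at 48 h under the block (-0.98, adjusted p = 0.00136).

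A list of 42 S phase genes, of which 41 were tested, gives the scale of the changes in replicating cells. It holds EXO1, PCNA, RFC2, RPA2 and POLD3 of the 23 above and UNG of base excision repair. Of these 41 genes, 25 were called lower with si-A1 and 27 with si-A2 at 24 h, with medians of -1.55 and -1.76. Over all genes 0.958% and 0.827% were called lower, with a median of 0.05 in both. At 48 h 37 were called lower with si-A1 (median -1.85) and 2 with si-A2 (median -0.77). With si-A2 at 48 h all 41 still had a log2 fold change below 0. Of these, 36 were lower and 0 higher at an unadjusted limma p below 0.05, against 3389 lower and 3124 higher of all 37704 genes. Over all genes 3.66% and 0.379% were called lower at 48 h with si-A1 and si-A2, with medians of 0.06 and 0.01. With the replicate number as a block 34 and 0 of the 41 were called lower at 48 h, against 1003 and 0 of all 37704 genes. MSH6 stood above the 4 S phase medians of the main fits, at -0.55, -0.97, -0.98 and -0.64 in the same order. In 15 genes of base excision repair, UNG, NEIL3 and XRCC1 were the ones that fell, all with si-A1 at 48 h. In 17 genes of nucleotide excision repair, 1 fell (RAD23B) and 1 rose (ERCC1) with si-A1 at 48 h, shares near those of all genes, of which 3.66% were called lower and 2.16% higher. ERCC1 was not called with the replicate number as a block.

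How far an effect differed between 48 h and 24 h was tested over 30409 genes, on probes held by both array versions. It was -0.43 for MSH6 with si-A1 (SE 0.21, adjusted p = 0.409) and 0.34 with si-A2 (SE 0.22, adjusted p = 0.819). MSH3 gave -0.18 and 0.02 and PMS2 0.14 and -0.10, with adjusted p of 0.704 or more. No change of the 3 genes was called higher for si-A2, where 0.0395% of all genes were. EXO1 was among those called, with 1.88 (SE 0.18, adjusted p = 9.95e-05), and it kept that side of the threshold without the slide term but not with the dim array (2.08, adjusted p = 0.0243).

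The call of MSH6 with si-A1 at 48 h held under 12 of 13 other settings, with values of -0.99 to -0.53. It was lost with the dim array included (-0.96, adjusted p = 1), where the calls with si-A1 dropped from 2193 to 23 of all genes. It also held when any 1 array was left out (-1.05 to -0.93, adjusted p 0.0019 to 0.00976). MSH6 with si-A2 at 24 h was called under 6 of 12 other settings (adjusted p 0.0042 to 0.0564 over all 12) and under none that left out an array.

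**Figure D4:**
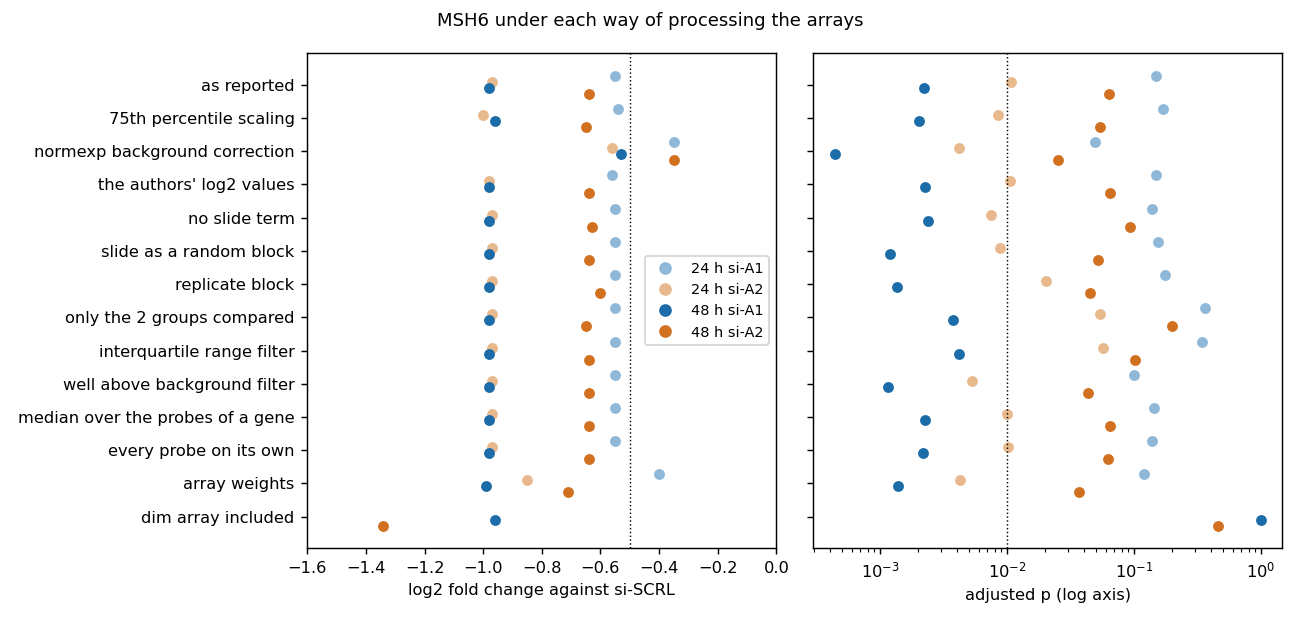
MSH6 log2 fold change against si-SCRL (left) and adjusted p on a log axis (right) under each way of processing the arrays, pale for 24 h and dark for 48 h, blue for si-A1 and orange for si-A2, with dotted lines at the thresholds of -0.5 and 0.01. The 48 h si-A1 points stay left of -0.5 in all settings and left of 0.01 in all but the one with the dim array, and the 24 h si-A2 points fall on either side of 0.01.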

How the data were processed

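Expression was measured in LNCaP cells on 24 one-colour Agilent arrays, 4 for each siRNA and time point, of which 23 were used. Groups come from the labels, and slides from the number in the name of each array scan. Deposited were the Feature Extraction processed intensity of each spot, a linear value after background subtraction with no normalization between arrays, and log2 values that the authors had quantile-normalized. Per the labels the submitters used R 3.4.3 and limma 3.34.8 on hg38. Here the log2 processed intensity was quantile-normalized within a time point, control spots were dropped, spots marked as non-uniform or as population outliers were set aside, and spots of a probe were averaged. A probe was kept above the mean plus 3 SDs of the negative controls on at least 3 arrays, and the brightest probe stood for a gene. Unlike in the study, no filter on the interquartile range was used, so that genes with little variation were tested. Names came from RefSeq accessions on GRCh38.p14.

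All 3 groups of a time point entered a single linear model with the slide as an additive term (R 4.3.3, limma 3.58.1, statmod 1.5.0, data.table version 1.17.8), with Benjamini-Hochberg adjustment over all genes. The scripts were tested on simulated data. The median intensity of an array, 24.4 to 57.2 at 24 h and 20.4 to 32.2 at 48 h, and how many arrays there are set the precision. Between 58.5% and 71.7% of probes at 24 h and between 60.3% and 66.5% at 48 h were well above background. Alternatives changed the normalization, background correction, slide term, groups in the fit, filters, choice of probe, array weights and arrays used. Normexp correction, with an offset of 50, used median signals, since the files give no mean signal. Replicate numbers of 48 h pair the arrays by the rule applied: the deviations of same-numbered arrays correlated at 0.19 to 0.37 in 10 of 10 pairs. Arrays of other numbers on the same slide gave 0.10 to 0.31, and after the slide was taken out same-numbered pairs gave -0.26 to -0.01. A likeness of same-numbered arrays beyond that of their slide was thus not seen. At 24 h only 3 of 12 pairs were over 0.1. The genes named are the 3 genes, the called genes of each list and all tested genes of the mismatch repair list. Also named are the neighbouring genes AIMP2 and FBXO11, and the 3 genes most correlated with each of the 3. The genes and lists were chosen with earlier results of these data known. Some genes are not reported here.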

Additional observations from a re-analysis of the deposited data

Results flagged for a closer look

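In MSH3, replicate 3 of si-SCRL at 24 h read 6.44 on A_23_P122001 while the other 3 arrays of the group read 5.82 to 5.88. Its gap to the nearest array was 0.903 of the range of the group, above the 95% limit of Dixon's test for 4 values. Without that array MSH3 was at 0.04 after both siRNAs in place of -0.09.

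RPA1 had a low array in replicate 1 of si-A2 at 24 h, with 6.63 against 7.58 to 7.66 on the others, a gap of 0.922 of the range. These were 2 of 164 groups of 4 arrays examined, and chance alone passes about 1 in 20, or 8.2.

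EXO1 changed its response to si-A2 between the time points by 1.88 on the log2 scale (adjusted p = 9.95e-05), from -2.62 at 24 h to -0.77 at 48 h. Time point and array version cannot be told apart.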

How the results depend on the processing

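Of the comparisons that the report turns on, the fall of MSH6 with si-A1 at 48 h kept its call when any array was left out (-1.05 to -0.93) and lost it with the dim array included (-0.96, adjusted p = 1). MSH6 with si-A2 at 24 h, at -0.97 and not called, was called with 75th percentile scaling (-1.0), normexp (-0.56), without a slide term (-0.97), with slide taken as a random block (-0.97), the filter on probes well above background (-0.97) and array weights (-0.85). The lower of its adjusted p was 0.0042 and the higher 0.0564, and with an array left out the values were -1.03 to -0.83 with no call. With si-A2 against si-A1 at 48 h MSH6 turned from 0.34 to -0.38 with the dim array, and its change of effect from 24 h to 48 h for si-A2 turned from 0.34 to -0.29.

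MSH3 and PMS2 had values near 0 whose sign moved. MSH3 at 24 h went to 0.04 for si-A1 and 0.03 for si-A2 with array weights, and to between -0.17 and 0.04 for both when an array was left out, 0.04 being the value without replicate 3 of si-SCRL. MSH3 at 48 h in si-A2 against si-A1 was at 0.05 with the median over probes and at -0.21 to 0.07 with an array left out, and its change of effect for si-A2 was at -0.01 with the dim array. PMS2 with si-A2 at 24 h was at -0.01 with normexp and with array weights, at -0.05 with the median over probes and at -0.06 to 0.14 with an array left out. PMS2 with si-A2 at 48 h was at 0.02 with 75th percentile scaling and with the median over probes, and at -0.05 to 0.02 with an array left out. AIMP2 minus PMS2 with si-A2 at 48 h was at 0.03 with normexp. In si-A2 against si-A1 at 48 h, MSH5 was at -0.12 and RFC3 at -0.55 with the dim array.

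The number of the other mismatch repair genes called at 24 h was 1 for each siRNA when only the compared groups were fitted, 10 for si-A1 with the filter on probes well above background, and 4 for si-A2 with the interquartile range filter. With an array left out it ranged, at 24 h, from 5 to 7 in si-A1 and from 3 to 7 in si-A2 (3 without replicate 3 of si-A2, 4 without replicate 2 of si-SCRL). At 48 h with si-A1 it was 1 with the dim array. At 48 h with si-A2, where none was called, it was 3 with normexp, 2 with the filter on probes well above background, and 1 each with 75th percentile scaling, the random block, array weights and without replicate 1 of si-A1, the range with an array left out being 0 to 1. Against si-A1 at 48 h it was 2 without the slide term, 0 with only the compared groups, 3 with the interquartile range filter, 0 with the dim array and 1 to 5 with an array left out. The list median with normexp was -0.35 and -0.28 for si-A1 and si-A2 at 24 h, -0.72 for si-A1 at 48 h and 0.21 for si-A2 against si-A1 at 48 h. With the interquartile range filter, which tests fewer genes, it was -1.16 and -1.20 at 24 h, and -1.31, -0.61 and 0.70 at 48 h for si-A1, si-A2 and si-A2 against si-A1. With array weights it was -0.48 for both siRNAs at 24 h. It was -0.81 for si-A1 at 48 h over every probe, -1.01 for si-A2 and -0.12 for si-A2 against si-A1 at 48 h with the dim array, and -0.69 to -0.48 for si-A1 at 24 h with an array left out, the latter without replicate 3 of si-SCRL.

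With the replicate number as a block, the genes called numbered 251 (378 without) for si-A1 and 30 (113) for si-A2 against si-A1 at 24 h, and 1421 (2193), 0 (167) and 208 (506) for si-A1, si-A2 and si-A2 against si-A1 at 48 h. Among the calls lost under this block at 48 h were POLD3 and ERCC1 with si-A1 and the 2 S phase genes with si-A2. Of the 3 genes MSH6 kept its call (-0.98). With only the compared groups the counts were 136 and 152 (331) for si-A1 and si-A2 and 23 between them at 24 h, and 0 for si-A2 and 0 between them at 48 h. With the interquartile range filter they were 216, 215 and 17 at 24 h, and 41 for si-A2 and 282 between the siRNAs at 48 h. Between the siRNAs at 24 h normexp gave 312, the filter on probes well above background 219 and array weights 363. At 48 h normexp gave 487 and the filter on probes well above background 289 for si-A2, and array weights 790 between the siRNAs. Without the slide term the counts at 48 h were 1131, 93 and 240, and with the dim array 23, 0 and 0. The change of effect, called for 49 genes for si-A1 and 13 for si-A2, was called for 21 and 8 without the slide term and for 0 and 0 with the dim array. Leaving out 1 array gave 198 to 321, 211 to 326 and 27 to 253 genes at 24 h and 1094 to 2288, 1 to 72 and 20 to 442 at 48 h. The cause of these differences was not tested.

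RFC3 with si-A1 at 24 h lost its call in 10 of 12 such fits, RFC5 with si-A2 in 6, and at 48 h POLD3 with si-A1 in 8 of 11 and LIG1 in 6. In si-A2 against si-A1 at 48 h, MSH5 and PCNA lost theirs in 10 of 11, RFC2 in 9, RFC3 in 8 and RFC5 in 6. EXO1 lost none of its calls against si-SCRL there. Signal over background limits MSH4 and POLD3, which were not well above background on all arrays of 24 h. Apart from the MSH3 probes of 48 h, no probe was compared in level with another.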

Other observations

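Over the 12 arrays of 24 h, the genes whose levels followed MSH6 most closely among 19475 named genes were GEN1 (r = 0.98), a resolvase of recombination intermediates, HAUS1 (0.96), a spindle protein, and UBE2T (0.96), the ubiquitin-conjugating enzyme of the Fanconi anemia pathway. At 48 h, over 11 arrays of the other version, the same pairs gave r of 0.84, 0.79 and 0.95. The genes closest to MSH3 at 24 h were KATNA1 (0.97), ZNF10 (0.97) and PDCD6 (0.96), and at 48 h their r was 0.38, -0.20 and 0.57. MSH3 read 6.44 on replicate 3 of si-SCRL at 24 h and 5.77 to 6.08 on the other arrays. Much of its spread at 24 h thus comes from that array, and r without it was not computed. For PMS2 they were VPS45 (0.95), FAM32A (0.91) and HIBADH (0.89), with r of 0.59 for VPS45 and 0.01 for HIBADH at 48 h. PMS2 was read on A_32_P140706 at 24 h and on A_24_P195476 at 48 h, so the probe differs between these values too. The arrays of a set share groups and slides, so these values describe the arrays and carry no p.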
